A study of Mus musculus with 6 samples.

Results

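The genes described here are 10 genes of endothelial-to-mesenchymal transition, namely the transcription factors Snai1, Snai2, Twist1, Twist2, Zeb1, Zeb2 and Prrx1 and the mesenchymal products Vim, Fn1 and Postn, taken by symbol from a table of 54429 genes. They were measured by ribodepleted RNA-seq in 6 libraries of primary aortic endothelial cells (EC) from adult wild-type C57BL/6 mice, 3 transduced with a lentiviral Meis1-OE vector, which overexpresses Meis1, and 3 transduced with a YFP-CTRL vector. Virus was present for 48 h, and at 72 h cells positive for YFP, CD31 and VEC were sorted, plated again and grown to confluency in both groups, so cells without CD31 or VEC at the sort were not carried forward in either group. The EC were a purchased primary culture, and the study states 3 independent replicates per condition without saying how many lots or mice they came from.

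Endothelial-to-mesenchymal transition is the change in which EC loosen their junctions, lose endothelial genes and gain a fibroblast-like cytoskeleton and matrix, in heart valve development and in vascular disease. Snail (Snai1) and Slug (Snai2) are zinc finger repressors that bind E-box sequences at junction genes, the Zeb factors are zinc finger and homeodomain proteins that bind the same sequences, the Twist factors are basic helix-loop-helix proteins, and Prrx1 is a homeodomain factor of mesenchyme. Vimentin, fibronectin and periostin are products of mesenchymal cells, although vimentin and fibronectin are also made by EC in culture.

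Across the libraries, total counts ran from 34176642 to 47956605. Meis1 was at 2961 to 3477 CPM (counts scaled by library size, with TMM factors) in the Meis1-OE libraries and at 1.15 to 1.87 CPM in the YFP-CTRL libraries. All 16 genes of an endothelial list were detected and tested, and their summed level was 5873 to 7111 CPM in Meis1-OE EC and 6213 to 8618 CPM in YFP-CTRL EC. The YFP-CTRL libraries differed from each other. The proliferation score, which is the mean log2(CPM + 1) of 15 cell cycle genes, was 4.198, 5.20 and 6.39 for YFP-CTRL A, B and C but 6.42, 6.42 and 6.46 for Meis1-OE A, B and C. The log2 fold change was above 0 for all 15 of these genes (median 0.93), of which 0 passed by edgeR (2 at an unadjusted p under 0.05) and 1 by DESeq2. The letters are those of the deposited columns, and values for one condition are given below in the order A, B, C.

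In Meis1-OE EC, Twist2, Fn1 and Postn rose and Snai2 fell, Snai1, Zeb1, Zeb2, Prrx1 and Vim did not pass the test, and Twist1 had 0 counts in all 6 libraries. The test was the quasi-likelihood test of edgeR, with Benjamini-Hochberg adjustment over the 16065 genes tested, at an adjusted p under 0.05. At an unadjusted p under 0.05, 2050 of these 16065 genes were higher and 2155 lower, so an unadjusted p of that size was common. Of the 9 genes tested, 3 were higher and 1 was lower, against 4.14% of all genes tested higher, 2.73% lower and 6.87% called in either direction. Twist2 and Postn passed the filter on low counts only through the Meis1-OE libraries, so these 2 had to differ and their calls add nothing to that count. Among the other 7 genes, 1 was higher (Fn1) and 1 was lower (Snai2). The libraries of the conditions did not overlap for 4 of these 7 (Snai2, Zeb1, Prrx1 and Fn1), against 33.1% of all genes tested.

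**Figure D1:**
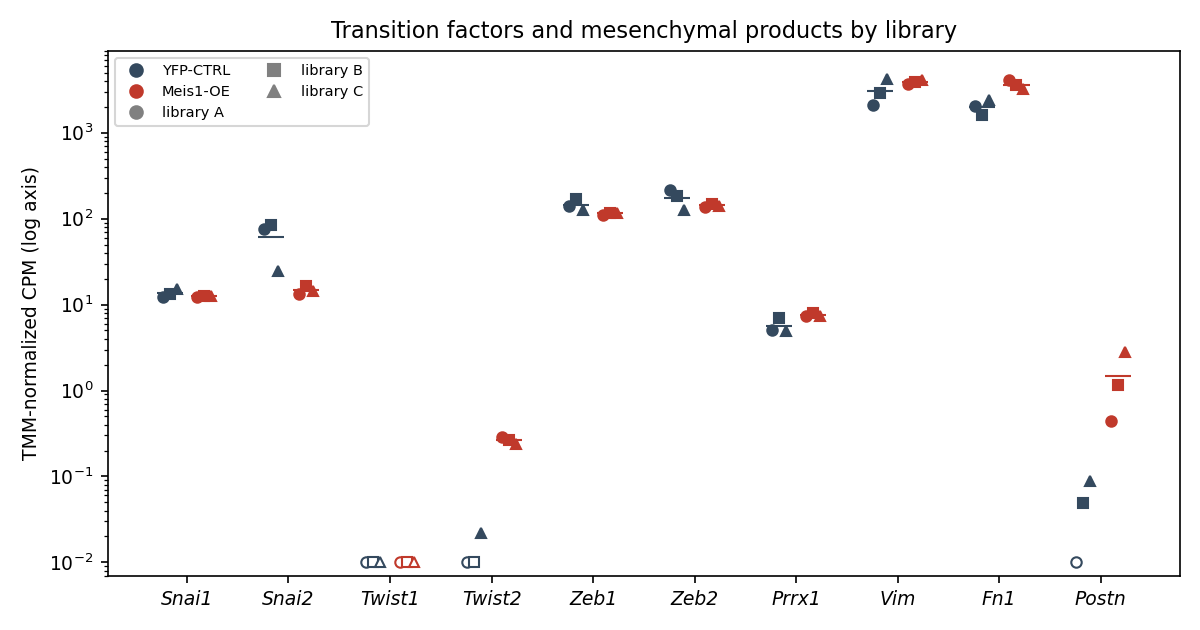
TMM-normalized CPM on a log axis for each of the 10 genes, with YFP-CTRL libraries in dark blue and Meis1-OE libraries in red, libraries A, B and C as circles, squares and triangles, the mean of 3 as a line where no library is at 0, and open symbols at the bottom for 0 counts. Snai2 lies between 13.5 and 16.3 CPM in Meis1-OE EC and between 24.3 and 84.1 CPM in YFP-CTRL EC, while for Twist2 and Postn the Meis1-OE libraries stand well above the YFP-CTRL libraries, which are at or near 0.

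Relative to exon length, Vim and Fn1 were far above the factors. As RPKM (reads scaled to exon length and library size), Vim was at 1322 ± 466 and Fn1 at 241 ± 48.4 in YFP-CTRL EC (SD, n = 3). Snai2 at 30.2 ± 15.9, Zeb1 at 15.03 ± 2.34, Zeb2 at 11.4 ± 3.02 and Snai1 at 8.41 ± 0.944 followed on the same scale. Neighbours in the order Snai2, Zeb1, Zeb2 and Snai1 overlapped between libraries, so this part of the order is not set. Prrx1 at 0.511 ± 0.1001 lay below them without overlap, and Postn and Twist2 were at or below 0.0166 in every YFP-CTRL library. In Meis1-OE EC the same scale gave 1681 ± 91.9 for Vim, 436 ± 55.9 for Fn1, 11.8 ± 0.445 for Zeb1, 9.34 ± 0.378 for Zeb2, 7.68 ± 0.0968 for Snai1 and 7.23 ± 0.728 for Snai2 (SD, n = 3). Both Snail genes and both Zeb genes were therefore expressed in the control culture, and the RPKM of Snai2 in Meis1-OE EC overlapped that of Snai1.

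Promoter sequence is shown for Twist2 and Postn, which went from at or near 0 to detected, and for Snai1, the factor with an E-box match. RefSeq promoters on GRCm38.p6 were at hand for 7 of the 10 genes (not Snai2, Zeb1 or Fn1), in 11 windows. The 250 bases before each annotated start were searched on both strands for CACCTG, the E-box form bound by Snail and Zeb factors, TGACAG, the core bound by Meis proteins, and TGATTGA, from the composite site of Pbx and Meis proteins. TGATTGA and TGACAG can share letters, and did not here. Capitals mark the match.
Twist2, chr1:91801211-91801460, plus strand, TGACAG starting 38 bases before the annotated start: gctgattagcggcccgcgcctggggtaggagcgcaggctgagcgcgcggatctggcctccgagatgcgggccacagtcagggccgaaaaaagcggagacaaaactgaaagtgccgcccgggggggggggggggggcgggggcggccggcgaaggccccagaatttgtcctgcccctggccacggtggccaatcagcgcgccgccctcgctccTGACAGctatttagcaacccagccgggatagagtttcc
Postn, chr3:54360857-54361106, plus strand, TGATTGA starting 186 bases before the second annotated start: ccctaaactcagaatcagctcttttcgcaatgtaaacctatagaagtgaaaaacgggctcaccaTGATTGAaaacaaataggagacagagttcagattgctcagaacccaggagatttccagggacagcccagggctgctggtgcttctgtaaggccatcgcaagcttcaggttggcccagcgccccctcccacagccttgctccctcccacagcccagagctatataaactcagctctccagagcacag
Snai1, chr2:167537945-167538194, plus strand, CACCTG starting 126 bases before the annotated start: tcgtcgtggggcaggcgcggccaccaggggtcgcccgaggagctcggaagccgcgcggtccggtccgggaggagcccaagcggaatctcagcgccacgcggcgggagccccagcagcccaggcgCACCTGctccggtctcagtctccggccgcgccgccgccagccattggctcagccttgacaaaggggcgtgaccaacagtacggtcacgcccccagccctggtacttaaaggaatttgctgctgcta
These were the only matches in the 11 windows. Of 32851 windows of this length, 17.2% hold CACCTG, 15.9% hold TGACAG and 2.34% hold TGATTGA, so a match is a description of the letters and not a site.

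Snai2, which encodes Slug, lies at chr16:14705852-14709395 (GRCm38.p6, the assembly of mm10, the build the labels name). Counts of Snai2 were 2560, 3430 and 1103 in YFP-CTRL EC and 615, 741 and 661 in Meis1-OE EC. These are 75.4, 84.1 and 24.3 CPM against 13.5, 16.3 and 14.3 CPM, or means of 61.2 ± 32.3 and 14.7 ± 1.48 CPM (SD, n = 3 each). Every YFP-CTRL library was above every Meis1-OE library, and YFP-CTRL library C, whose proliferation score was close to that of the Meis1-OE libraries, was the nearest to them, at 24.3 CPM against at most 16.3 CPM. Snai2 was 4.17-fold lower in Meis1-OE EC, a log2 fold change of -2.06 (standard error 0.42, adjusted p = 0.0348 from edgeR). In bulk RNA, fewer cells that express a gene and less RNA per cell cannot be told apart. With YFP-CTRL library C left out, Snai2 was at -2.45 on the log2 scale (adjusted p = 0.000277 from edgeR). In that fit 16.5% of all genes tested were called higher and 15.2% lower. Without any other single library the adjusted p of Snai2 was between 0.0712 and 0.157. In a fit that also held the proliferation score, Snai2 was at -1.03 (adjusted p = 0.168 from edgeR). The score ran only from 6.42 to 6.46 in Meis1-OE EC, so its slope there came almost wholly from the YFP-CTRL libraries. Only YFP-CTRL library C had a score near those of Meis1-OE EC, so values from that fit rest mainly on this library.

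Snai1, which encodes Snail, did not pass the test. YFP-CTRL EC had 12.3, 13.2 and 15.3 CPM of Snai1, and Meis1-OE EC had 12.3, 12.5 and 12.6 CPM. The groups overlapped, and the log2 fold change of -0.13 (95% interval -0.45 to 0.18) had an adjusted p of 0.574 from edgeR. On library totals without TMM scaling the log2 fold change was 0.0122. Within each library, the log2 ratio of Snai1 counts to Snai2 counts does not depend on scaling. This ratio was -2.61, -2.67 and -0.66 in YFP-CTRL EC, below the -0.13, -0.38 and -0.18 of Meis1-OE EC in every library. The difference of 1.75 gave p = 0.1 in a two-sided exact permutation test, the smallest p that 3 libraries against 3 allow, and 0.2 after adjustment over the 2 gene pairs tested.

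Twist1 and Twist2 encode closely related basic helix-loop-helix proteins, and RNA of only Twist2 was detected. Twist1 was listed with 0 counts in every library, which allows up to 3 counts, or 0.0883 CPM in the shallowest library. Twist2, at chr1:91801461-91848034, had 0, 0 and 1 counts in YFP-CTRL EC and 13, 12 and 11 counts in Meis1-OE EC. No YFP-CTRL library exceeded the floor of 3 counts, and every Meis1-OE library did. The ratio of summed counts was 31.5, with an exact 95% counting interval of 5.30 to 1278, so the size of the rise is poorly set, and the level reached was only 0.262 ± 0.0235 CPM (SD, n = 3). The fitted log2 fold change of 4.57 (standard error 0.71, adjusted p = 0.0146 from edgeR) depends on the prior count of the fit. The adjusted p was 0.0588 to 0.0847 without any one Meis1-OE library and 0.0705 without YFP-CTRL library B, and it was 0.1104 in the fit with the proliferation score, all from edgeR.

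Zeb1 and Zeb2 were abundant in both groups. Zeb1 had 139, 171 and 127 CPM in YFP-CTRL EC against 109.9, 117 and 118 CPM in Meis1-OE EC, with no overlap. Its log2 fold change was -0.35 (95% interval -0.66 to -0.03), with an unadjusted p of 0.0344 and an adjusted p of 0.157 from edgeR. Zeb2 had 218, 183 and 126 CPM in YFP-CTRL EC against 139, 149.9 and 142 CPM in Meis1-OE EC. YFP-CTRL library C was the lowest of the 6, and the log2 fold change of -0.29 (95% interval -0.75 to 0.16) had an adjusted p of 0.379 from edgeR. Without YFP-CTRL library C both passed, Zeb1 at -0.45 (adjusted p = 0.0284) and Zeb2 at -0.49 (adjusted p = 0.0103), from edgeR. Passing was common in that fit, where 16.5% of all genes tested were called higher and 15.2% lower. Zeb2 was at 0.17 (adjusted p = 0.469 from edgeR) in the fit with the proliferation score. The log2 ratio of Zeb1 to Zeb2 counts was -0.65, -0.10 and 0.02 in YFP-CTRL EC and -0.33, -0.36 and -0.27 in Meis1-OE EC, a difference of -0.08 with p = 0.8 in the same exact permutation test. Zeb2os, which is antisense at the Zeb2 locus, averaged 2.04 ± 0.327 CPM in Meis1-OE against 2.02 ± 0.589 CPM in YFP-CTRL libraries (SD, n = 3 each), and no source says whether reads were counted by strand.

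Prrx1 was low. YFP-CTRL EC had 5.06, 6.94 and 4.97 CPM of it and Meis1-OE EC had 7.42, 7.98 and 7.39 CPM. The groups did not overlap, and the log2 fold change of 0.42 (95% interval -0.0017 to 0.85) had an adjusted p of 0.192 from edgeR.

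**Figure D2:**
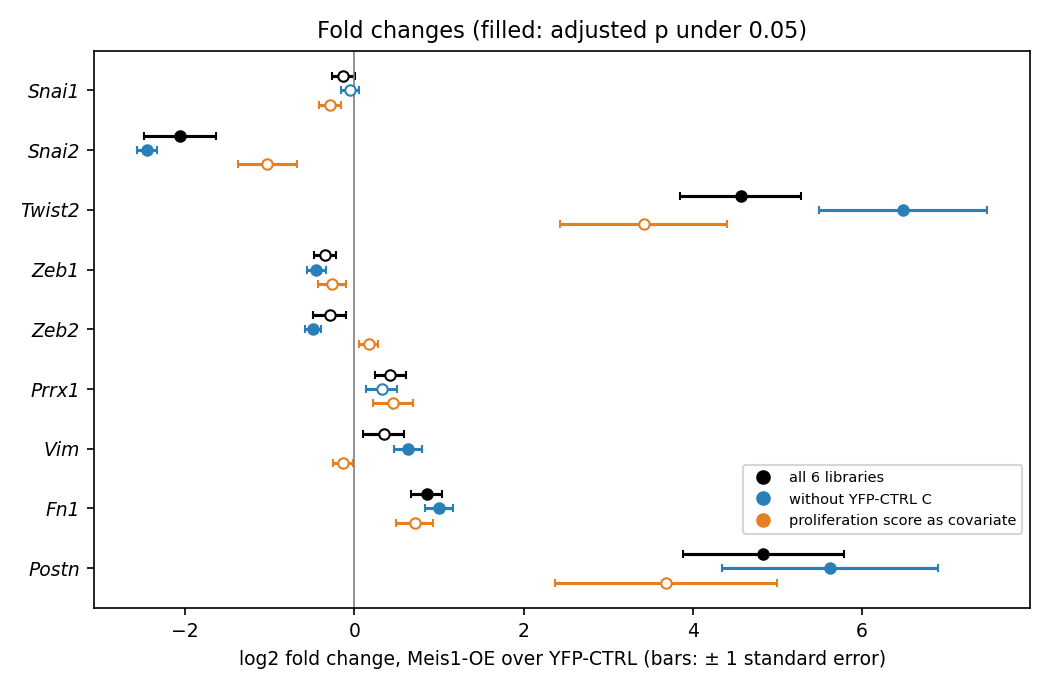
Log2 fold change of Meis1-OE over YFP-CTRL EC for the 9 tested genes, with bars of 1 standard error, for all 6 libraries (black), without YFP-CTRL library C (blue) and with the proliferation score as covariate (orange), filled where the adjusted p is under 0.05. Snai2, Twist2, Fn1 and Postn are filled with all 6 libraries, and none is filled with the covariate, while Zeb2 and Vim lie on opposite sides of 0 in the blue and orange fits.

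Fn1, which encodes the matrix protein fibronectin and lies at chr1:71585473-71653280, rose. Levels of Fn1 were 2021, 1605 and 2413 CPM in YFP-CTRL EC against 4126, 3593 and 3195 CPM in Meis1-OE EC, or 2013 ± 404 and 3638 ± 467 CPM (SD, n = 3 each). Every Meis1-OE library was above every YFP-CTRL library, including C. The rise was 1.81-fold, a log2 fold change of 0.85 (standard error 0.18, adjusted p = 0.0376 from edgeR). The log2 fold change was 0.73 to 0.9984 when single libraries were left out, and the adjusted p passed only without YFP-CTRL library C (0.00666 from edgeR) and was 0.0644 to 0.157 without any other. It was 0.71 (adjusted p = 0.126 from edgeR) in the fit with the proliferation score.

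Postn, which encodes periostin, a matricellular protein of fibroblasts and valve mesenchyme, had 0, 2 and 4 counts in YFP-CTRL EC and 20, 53 and 131 counts in Meis1-OE EC. No library overlapped, and the Meis1-OE libraries differed among themselves more than for any other of the 10 genes in relation to their mean, at 0.438, 1.17 and 2.83 CPM. The ratio of summed counts was 29.7, with an exact 95% counting interval of 13.4 to 82, which does not hold the spread between libraries. The fit gave a log2 fold change of 4.83 (standard error 0.95, adjusted p = 0.0313 from edgeR), which depends on its prior count. The adjusted p was 0.0970 to 0.132 without Meis1-OE library B or C or without YFP-CTRL library B, 0.0624 without YFP-CTRL library A and 0.177 in the fit with the proliferation score, all from edgeR.

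Vim, the intermediate filament of mesenchymal cells and cultured EC, was the most abundant of the 10 genes per length. Levels of Vim were 2121, 2871 and 4266 CPM in YFP-CTRL EC against 3715, 3919 and 4144 CPM in Meis1-OE EC. YFP-CTRL library C was the highest of the 6, and the log2 fold change of 0.35 (95% interval -0.22 to 0.91) had an adjusted p of 0.4006 from edgeR. Leaving out YFP-CTRL library C gave 0.64 with an adjusted p of 0.0283 from edgeR, in a fit that called 16.5% of all genes tested higher. With the proliferation score in the fit, Vim was at -0.14 with an adjusted p of 0.595 from edgeR. Within YFP-CTRL EC, Vim was higher and Snai2 and Zeb2 were lower in library C than in A, the libraries with the highest and lowest proliferation score. The part of growth in these values was not tested.

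**Figure D3:**
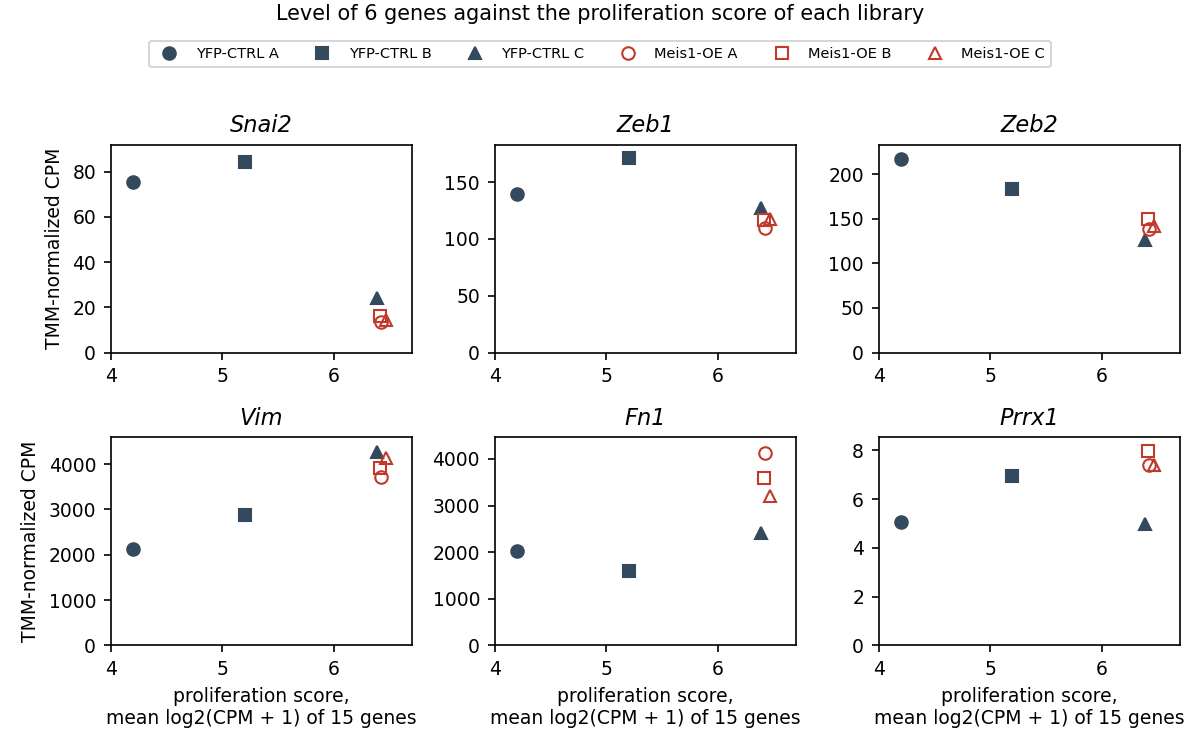
TMM-normalized CPM of Snai2, Zeb1, Zeb2, Vim, Fn1 and Prrx1 against the proliferation score of each library, with YFP-CTRL libraries filled and Meis1-OE libraries open, and with the CPM axis starting at 0. YFP-CTRL library C sits beside the Meis1-OE libraries on the score (6.39 against 6.42 to 6.46) and close to them for Zeb1, Zeb2 and Vim. For Snai2 and Fn1 it lies apart from them but nearer than A and B, and for Prrx1 it is the lowest library.

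Likeness of profile was taken as Pearson's r of log2(CPM + 1) over the 6 libraries, among genes with a mean of at least 5 CPM. The genes most like Snai2 were Psmf1, Llph and 2610008E11Rik (r = 0.9987, 0.9985 and 0.9985). In all, 790 of 10221 genes had an r over 0.95 with Snai2, so its profile was a common one. The genes most like Fn1 were Ttc30b, Akt2 and Tnrc6a (r = 0.9921, 0.9862 and 0.9854), and 68 genes had an r over 0.95 with it. The points share library, depth and the order of the proliferation score.

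Other genes that act with or on these factors were taken from lists. Among 14 other transition factors, 10 were tested, and 1 was higher and 1 lower, with a median log2 fold change of -0.32 against 0.01 for all genes tested. Sox9, a factor of cartilage and valve mesenchyme, rose from 1.001, 0.711 and 1.06 CPM in YFP-CTRL EC to 4.77, 3.68 and 3.17 CPM in Meis1-OE EC (log2 fold change 2.07, standard error 0.27, adjusted p = 0.00904 from edgeR). Its groups did not overlap, and it passed in all fits that left out a library except that without Meis1-OE B (adjusted p = 0.0556 from edgeR). Wwtr1, which encodes the Hippo effector TAZ, fell by 0.6041 on the log2 scale (adjusted p = 0.0399 from edgeR). Sox4, the most abundant of the list, had a log2 fold change of -0.71 (adjusted p = 0.151 from edgeR). Snai3, Prrx2 and Gsc had at most 5 counts in any library.

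Of 9 partners of the Twist factors and Id proteins, 6 were tested and 0 passed in either direction by edgeR (1 at an unadjusted p under 0.05) or by DESeq2, with a median log2 fold change of 0.10. The E proteins Tcf4 and Tcf12, which dimerize with Twist, had log2 fold changes of 0.36 and -0.17 (adjusted p = 0.0798 and 0.398 from edgeR). Of 10 corepressors that Snail and Zeb factors recruit, 10 were tested and 1 passed, with a median of -0.05. Ajuba, a LIM protein that bridges Snail to chromatin enzymes, fell from 47.5, 43.6 and 28.4 CPM to 19.0, 12.6 and 13.4 CPM (log2 fold change -1.41, standard error 0.24, adjusted p = 0.0203 from edgeR). No library of Ajuba overlapped between the groups. Ctbp1 and Ctbp2, which encode the CtBP corepressors, had log2 fold changes of -0.07 and -0.22 (adjusted p = 0.693 and 0.217 from edgeR). Of 11 genes of Snail phosphorylation and turnover, 11 were tested with a median of -0.16 and 1 passed, Lats2, a Hippo kinase, which was lower at -0.64 (adjusted p = 0.0254 from edgeR). Gsk3b and Csnk1a1, kinases that mark Snail for degradation, were at -0.21 and -0.08 (adjusted p = 0.453 and 0.675 from edgeR).

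Mesenchymal matrix and surface genes were mixed. Of 24 listed, 19 were tested, and 3 were called higher and 0 lower, against 4.14% and 2.73% of all genes tested. The median log2 fold change was 0.27, with 14 genes above 0 and 5 below. The libraries of the conditions did not overlap for 6 that were higher and 2 that were lower, against 17.2% and 15.9% of all genes tested. Spp1, which encodes osteopontin, rose from 116, 243 and 212 CPM to 463, 582 and 555 CPM (log2 fold change 1.49, standard error 0.27, adjusted p = 0.0227 from edgeR). Ltbp2, which encodes a latent TGF-beta binding protein, rose by a log2 fold change of 2.62 from at most 0.154 CPM in any YFP-CTRL library (adjusted p = 0.0153 from edgeR), and it passed the filter on low counts only through the Meis1-OE libraries, so it had to be higher. Sparc and Ltbp1, the most abundant of the list, were at -0.06 and 0.14 (adjusted p = 0.868 and 0.773 from edgeR). Cdh11, Fap, Thy1, Lox and Bgn, which mark fibroblasts, reached at most 19 counts per library and were not tested.

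Of 8 fibronectin receptor chains, 7 were tested and 1 was higher. Itga8, whose integrin binds fibronectin among other ligands, went from at most 0.123 CPM in YFP-CTRL EC to 6.26, 21.1 and 24.4 CPM in Meis1-OE EC (adjusted p = 0.00423 from edgeR). Itga8 passed the filter only through the Meis1-OE libraries, and of the other 6 chains 0 were called by edgeR (2 at an unadjusted p under 0.05) or by DESeq2. The abundant chains Itgb1 and Itga5, which form the main fibronectin receptor, were at -0.17 and -0.16 (adjusted p = 0.453 and 0.575 from edgeR). Of 10 intermediate filament genes other than Vim, 7 were tested and 1 was higher, the muscle gene Des, from at most 0.0490 CPM to 0.397 to 0.518 CPM (adjusted p = 0.0150 from edgeR), which also passed the filter only through the Meis1-OE libraries. The nuclear lamin gene Lmna and the filament gene Nes were at -0.07 and -0.49 (adjusted p = 0.841 and 0.408 from edgeR).

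Genes that the factors repress in epithelium were mostly silent. Of 14 epithelial genes, 4 were tested, and Cdh1, which encodes E-cadherin, and Epcam had 0 counts in all libraries. Krt19, a keratin, rose from 0.618, 1.37 and 2.13 CPM to 35.6, 22.2 and 18.8 CPM (log2 fold change 4.19, standard error 0.46, adjusted p = 0.0052 from edgeR), and it passed in each fit that left out a library and in the fit with the proliferation score (adjusted p = 0.0111). Grhl1, an epithelial factor, was at -0.32 (adjusted p = 0.765 from edgeR).

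Endothelial identity genes did not move one way. Of the 16 tested, 2 were higher and 1 was lower, against 4.14% and 2.73% of all genes tested. The median log2 fold change was 0.08, with 10 genes above 0 and 6 below. No overlap between the conditions was seen for 5 that were higher and 3 that were lower, against 17.2% and 15.9% of all genes tested. Vwf, the von Willebrand factor of EC, rose from 8.13, 6.23 and 7.39 CPM to 24.3, 77.6 and 87.1 CPM (log2 fold change 3.12, adjusted p = 0.0120 from edgeR). Cldn5, a tight junction claudin of EC, rose from 26.5, 67.1 and 81.3 CPM to 163, 205 and 245 CPM (log2 fold change 1.81, adjusted p = 0.0398 from edgeR). Tek, the angiopoietin receptor, fell by 0.78 on the log2 scale (adjusted p = 0.0351 from edgeR). Nos3 and Cdh5, the most abundant of the list, were at 0.12 and -0.7037 (adjusted p = 0.663 and 0.0535 from edgeR), and Cdh5, the VEC of the sort, was lower in every Meis1-OE library.

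**Figure D4:**
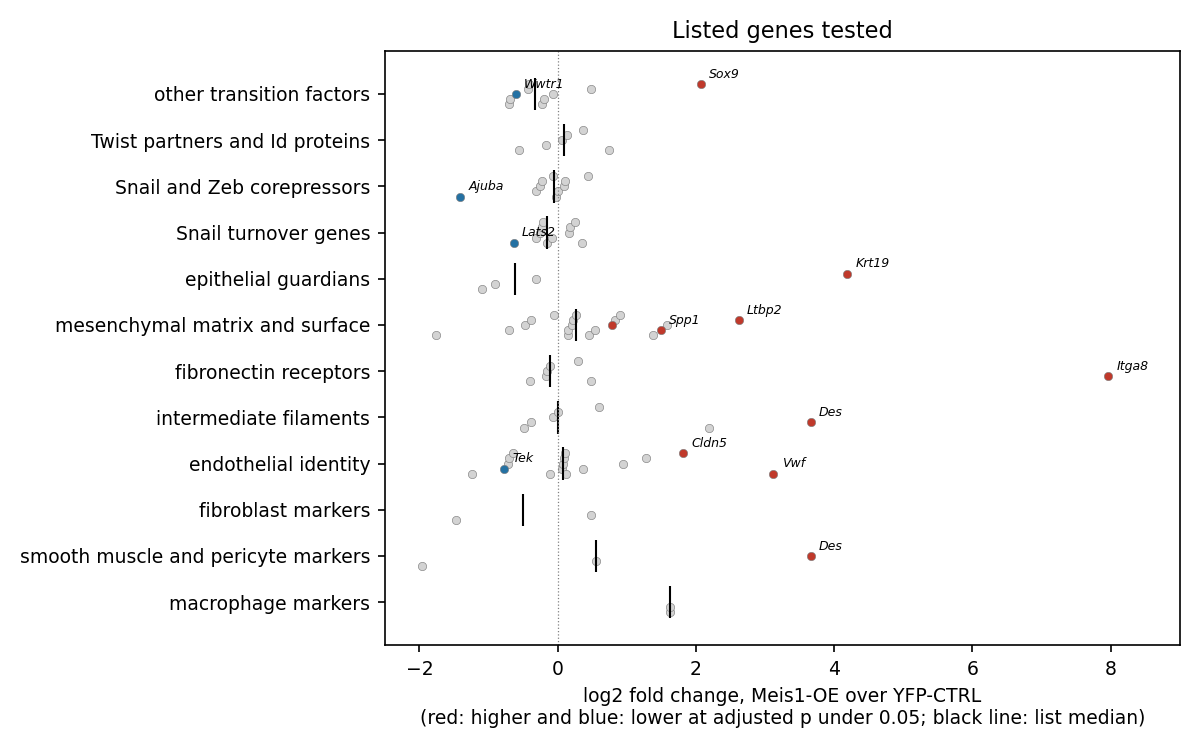
Log2 fold change of Meis1-OE over YFP-CTRL EC for the tested genes of each list, with genes called higher in red, genes called lower in blue, other genes in gray and the list median as a black line. Called genes are scattered over the lists, 9 higher and 4 lower in all, where 4.14% of all genes tested were higher and 2.73% lower. Of the called genes, Ltbp2, Itga8 and Des passed the filter on low counts only through Meis1-OE EC. Most points lie near 0.

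Leaving out single libraries ended many of these calls. Of the called genes named above, Krt19 and Itga8 passed in all 6 fits without a library, Sox9 in 5, Ajuba and Vwf in 3, and Wwtr1, Lats2, Spp1, Ltbp2, Des, Tek and Cldn5 in 2, and their largest adjusted p was 0.201 (Wwtr1, from edgeR). Sox9 failed without Meis1-OE library B alone. Each of the others that failed did so without Meis1-OE library B, without Meis1-OE library C and without YFP-CTRL library B, and all of those but Ajuba and Vwf also without Meis1-OE library A.

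Markers of other cell types were low, apart from Pdgfra and, in YFP-CTRL library C, Acta2. Of 8 fibroblast markers, Col1a1, Col1a2, Col3a1, Dcn, Lum and Dpt reached at most 13 counts per library, and Lum and Dpt had 0. The summed level of the list was 18.8 to 19.7 CPM in Meis1-OE EC and 21.4 to 55.6 CPM in YFP-CTRL EC, most of it Pdgfra and Pi16. Pdgfra, a growth factor receptor, was at 11.9, 11.8 and 11.7 CPM in Meis1-OE EC and 33.3, 49.1 and 15.6 CPM in YFP-CTRL EC (adjusted p = 0.0598 from edgeR), and Pi16 had a log2 fold change of 0.48 (adjusted p = 0.156 from edgeR). Of 8 smooth muscle and pericyte markers, Tagln, Myh11, Cnn1, Rgs5 and Cspg4 had at most 29 counts. The list summed to 4.78 to 6.45 CPM in Meis1-OE EC and 1.62 to 22.7 CPM in YFP-CTRL EC, with Acta2 at 19.9 CPM in YFP-CTRL library C and at most 3.33 CPM in any other, and Pdgfrb had a log2 fold change of 0.55 (adjusted p = 0.344 from edgeR). Of 7 macrophage markers, C1qa, C1qb, Tyrobp and Adgre1 had 0 counts, and the other markers had few. The list summed to 0.503 to 1.45 CPM in Meis1-OE EC and 0.319 to 0.506 CPM in YFP-CTRL EC, with Lyz2 and Csf1r both at 1.63 on the log2 scale (adjusted p = 0.181 and 0.148 from edgeR). Their part in the low Postn and Twist2 counts was not tested.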

How the data were processed

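RNA-seq of 3 Meis1-OE and 3 YFP-CTRL libraries was analysed. The authors deposited estimated counts per gene, not normalized, in 1 table by gene symbol. The labels name genome build mm10, and aligner, counting tool and annotation are not given in the sources used here. All 6 columns were used. Their names give the condition and a letter that no label ties to a replicate number, so libraries were compared unpaired. Counts were rounded to whole numbers. Libraries of a condition differed by more than sampling noise in every pair. In R 4.3.3, edgeR 4.0.16 (TMM, filterByExpr, quasi-likelihood test, two-sided) kept 16065 genes, with DESeq2 1.42.0 as an alternative; figures used matplotlib 3.10.9. The threshold was an adjusted p of 0.05, standard errors came from the F statistic, and intervals of log2 fold changes are 95% intervals of the fit. Counting intervals and the floor of 3 counts per library describe counting alone, because no molecular identifiers are described and PCR copies are not separate molecules. Exon lengths are unions of GENCODE vM1 exons by symbol. Older symbols (Mkl1, Mkl2, Cyr61, Ctgf) were matched through RefSeq synonyms.

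The genes and all lists were chosen with earlier results of these data known. From each list the text names the called genes, at most 4 by size, and the 2 with the highest mean CPM, besides genes named for having few or no counts, which were chosen after their values were seen. Some listed genes are counted but not reported here by name. Some genes of a list overlap another list (Des, Krt8, Krt18). Alternatives were DESeq2, edgeR with its size factors or with library totals, all genes kept, a minimum of 10 counts per gene in each library, the column letter as a replicate block, the proliferation score as a covariate, other pseudocounts for the ratios and each library left out in turn. The edgeR fit was tested on simulated data, where it called 45 of 98 genes with an absolute log2 change of 1. It called 91 of 99 genes with a change of 2, and made 3 false calls. Simulated libraries of a group shared the same mean per gene, unlike the YFP-CTRL libraries here, which differed from each other.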

Additional observations from a re-analysis of the deposited data

How the results depend on the processing

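Over all genes, 665 were called higher and 438 lower. The counts were 1048 and 179 on library totals (85.4% of calls higher, against 60.3%), where the median log2 fold change of all genes was 0.15, and 1128 and 1115 with DESeq2. Without single libraries they ran from 115 to 2717 higher and from 16 to 2498 lower, lowest without Meis1-OE library B and highest without YFP-CTRL library C. With the proliferation score as a covariate 387 were higher and 318 lower. The slope for the score in that fit came almost wholly from the YFP-CTRL libraries.

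Of the 10 genes, DESeq2, its size factors, library totals and no filter called Twist2, Fn1 and Postn higher and Snai2 lower, as reported. With at least 10 counts in every library, 1 was called higher (Fn1), because Twist2 and Postn were not tested. With the covariate 0 were called higher and 0 lower by edgeR (4 at an unadjusted p under 0.05). In that fit, 1510 of all 16065 genes tested were higher and 1672 lower at an unadjusted p under 0.05. The log2 fold changes with the covariate were -1.03 for Snai2, 3.42 for Twist2, 0.71 for Fn1 and 3.69 for Postn, and Zeb2 (0.17) and Vim (-0.14) changed sign. Snai1 changed sign on library totals (0.0122). Without single libraries, 0 to 4 were called higher and 0 to 3 lower. None was called by edgeR without Meis1-OE library B or C or YFP-CTRL library B (4, 4 and 5 at an unadjusted p under 0.05). Those fits tested 16413, 16450 and 16475 genes. Of these, 1292, 1346 and 1636 were higher and 1225, 1337 and 1466 lower at an unadjusted p under 0.05. By edgeR 1 was higher without Meis1-OE A (Postn) or YFP-CTRL A (Twist2). Another 4 were higher and 3 lower without YFP-CTRL C, against 16.5% and 15.2% of all genes tested in that fit. Over all fits without a single library, the log2 fold changes ran from -2.45 to -1.75 for Snai2, 4.12 to 6.49 for Twist2 and 0.73 to 0.9984 for Fn1. They ran from 3.96 to 5.63 for Postn, -0.45 to -0.21 for Zeb1, -0.49 to -0.12 for Zeb2 and 0.13 to 0.64 for Vim. The Zeb1 to Zeb2 difference ran from -0.28 to 0.0512 (above 0 without YFP-CTRL C). The Snai1 to Snai2 difference kept its sign throughout. The cause of these shifts was not tested.

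Among listed genes, 9 were called higher and 4 lower, where 4.14% of all genes tested were higher and 2.73% lower. With DESeq2 all of these kept their call and 10 listed genes were lower, where 6.14% of all genes with an adjusted p were lower. With the covariate 10 listed genes were also lower, where 1.98% of all genes tested were lower. In that fit 3 of the 9 that were higher (Sox9, Krt19, Itga8) and 1 of the 4 that were lower (Tek) kept their call. Wwtr1, Ajuba and Lats2 lost theirs (adjusted p = 0.0787, 0.0616 and 0.0658 from edgeR). Fits with single libraries left out gave 2 to 20 higher and 0 to 19 lower. Over all genes tested, those fits called 0.701% to 16.5% higher and 0.0975% to 15.2% lower. With the column letter as a replicate block, 544 genes (3.39% of those tested) were higher and 189 (1.18%) were lower. Of the 10 genes, 2 were called in that fit and 0 were lower, and 2 listed genes were lower. Snai2 was at -1.89 (adjusted p = 0.0559) and Fn1 at 0.87 (adjusted p = 0.0659) in that fit, from edgeR. Deviations from the group means correlated across genes at 0.24, 0.19 and 0.08 for letters A, B and C. Meis1-OE A and B each correlated best with the YFP-CTRL library of the same letter, but Meis1-OE C correlated best with YFP-CTRL B (0.25). No label says that the letters are pairs, so the fit with the replicate block was kept as an alternative.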
